A study of Mus musculus with 4 samples.

Results

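Conventional dendritic cells without *Ccr7* were examined in transplanted mouse hearts profiled cell by cell. A cell was counted as a member when it had over 200 detected genes, under 20% mitochondrial UMIs (unique molecular identifiers, which count RNA molecules), at least 5 UMIs of *H2-Aa*, fewer than 3 UMIs of *C1qa* and at least 1 UMI of *Flt3*, *Cd209a*, *Xcr1* or *Clec9a*. It also had no UMI of *Ccr7*, *Cd3e*, *Cd79a* or *Cdh5*. The members were thus chosen by measured UMI counts of these genes. They numbered 245 of the 44626 cells left by the limits on detected genes and mitochondrial UMIs (0.549%, 95% interval 0.483 to 0.622). The levels of the rule's own genes are therefore given as a description. The hearts came from male mice aged 8 to 10 weeks and were placed in the abdomen of C57BL/6J recipients. In the 2 allogeneic grafts the donor was a BALB/c mouse, in the 2 syngeneic grafts the donor was a C57BL/6J mouse, and the grafts were collected on day 5. No drug or genetic change is given for either group. Whole grafts were digested to single cells, red blood cells were lysed, no sort for a cell type is described, and libraries were made with 10x Genomics 3′ chemistry. The 4 sets of cells in the deposited table, called libraries 1 to 4 here, are not tied to a graft by any label, so no allogeneic cell was compared with a syngeneic cell. The libraries could not serve as replicates of a group, so no p-value was computed. Values are given library by library, and contrasts were taken within libraries.

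Conventional dendritic cells take up antigen in tissues, cut it into peptides and show the peptides to T cells on MHC molecules. Type 1 cells depend on the transcription factors *Irf8* and *Batf3*, carry the chemokine receptor *Xcr1* and the dead-cell receptor *Clec9a*, and are known for moving outside antigen onto MHC class I. Type 2 cells use *Irf4*, carry *Sirpa* and lectins such as *Cd209a*, *Mgl2* and *Clec10a*, and mainly show peptides on MHC class II to CD4+ T cells. When a dendritic cell matures it switches on *Ccr7*, the receptor that guides it to lymph nodes. In a heart graft, donor and recipient dendritic cells can both present donor antigen. The rule asks for cells in which that receptor was not detected, although a count of 0 in a cell does not show that the gene was silent.

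The members were unevenly spread over the libraries. Library 4 held 153 of them (1.35% of its 11300 filtered cells), libraries 1 and 3 held 42 each (0.407% of 10322 and 0.426% of 9850 cells) and library 2 held 8 (0.0608% of 13154 cells). The libraries had 96020294, 115162601, 138892048 and 166079145 UMIs in all. The median member had 18981, 16747, 14147 and 15288 non-mitochondrial UMIs in libraries 1 to 4. Library 4 held 2880 cells that met the *H2-Aa*, *C1qa* and exclusion limits, against 87, 29 and 84 in libraries 1 to 3. A marker UMI was present in 5.31% of these cells in library 4 (95% interval 4.52 to 6.20) but in 48.3%, 27.6% and 50% of them in libraries 1 to 3. All shares have exact Clopper-Pearson and all levels exact Poisson 95% intervals, and both cover counting error alone. A barcode sequence found in more than 1 library occurred 308 times, and 3 members had such a barcode, but no members of different libraries shared one.

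*H2-Aa*, which encodes the alpha chain of the MHC class II molecule I-A, was far above its limit of 5 UMIs in most members. The median was 206, 113.5, 193 and 100 UMIs per member in libraries 1 to 4, and 19 of the 245 members had fewer than 20. At the lower edge, 2 members had 5 or 6 *H2-Aa* UMIs and 7 cells just outside had 3 or 4. For *C1qa*, a subunit of the complement starter C1q that macrophages make, 126 members had 0 UMIs, 85 had 1 and 34 had 2, while 27 cells just outside had 3 or 4. For *Ccr7*, 13 cells with 1 UMI and 75 cells with at least 2 fell outside. The 120 members with exactly 1 marker UMI lay at the other edge, and 107 of them were from library 4.

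*Xcr1* and *Clec9a* carried most members into the set. Of the 245 members, 177 had a UMI of *Xcr1* or *Clec9a* and none of *Cd209a* (72.2%, called *Xcr1*/*Clec9a* cells), 44 had *Cd209a* and neither of the other pair (17.96%, called *Cd209a* cells), 3 had both and 21 had *Flt3* alone. This make-up was that of library 4. *Xcr1*/*Clec9a* cells numbered 19, 1, 14 and 143 in libraries 1 to 4, and *Cd209a* cells numbered 17, 5, 21 and 1. Without library 4, 92 members remained and 37.0% of them were *Xcr1*/*Clec9a* cells. *Flt3*, the receptor for the growth factor that dendritic cells need, had a UMI in 35 of 42, 4 of 8 and 32 of 42 members of libraries 1 to 3 but in 32 of 153 members of library 4.

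**Figure D1:**
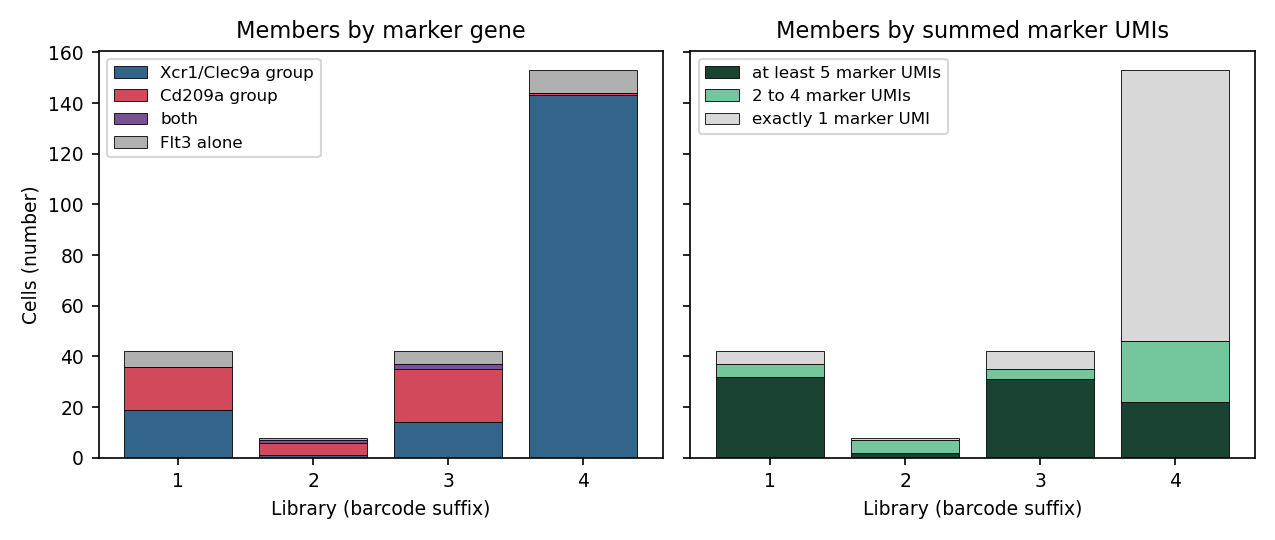
Number of members in each of libraries 1 to 4 (vertical axis, cells), stacked on the left by the marker genes they carry and on the right by their summed UMIs of the 4 markers. Library 4 has the most members, 153, of which 107 carry a single marker UMI, while 32 of 42 members of library 1 and 31 of 42 of library 3 carry at least 5.

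Most members of library 4 had few marker UMIs, unlike those of libraries 1 and 3. At least 5 UMIs summed over the 4 markers were present in 32, 2 and 31 members of libraries 1 to 3 and in 22 of the 153 members of library 4. The median *Xcr1*/*Clec9a* cell had 22376 non-mitochondrial UMIs in library 1 and 15377 in library 4. Within library 4 it had 24460.5 UMIs with at least 5 marker UMIs, 15114 with 2 to 4 and 14502.5 with 1, so cells with at least 5 were read deeper. In library 4, a UMI of *Xcr1* or *Clec9a* was found in 4.97% of the 2880 gated cells with fewer than 3 *C1qa* UMIs, where the median cell had 12949.5 UMIs. It was found in 7.79% of the 2695 gated cells with at least 3 *C1qa* UMIs, where the median was 17600 UMIs, and in 3.15% of 286 endothelial cells (at least 2 UMIs of *Cdh5* and none of *C1qa*, *Cd3e* and *Cd79a*), where it was 9710 UMIs. At least 2 such UMIs were found in 1.53%, 2.34% and 1.75% of the same cell groups. With every cell thinned to 1000 UMIs the shares were 0.667%, 0.780% and 0.704%. Exactly 1 such UMI was found in 3.44%, 5.45% and 1.40% of them. The shares with any and with exactly 1 such UMI were lower in the low-C1qa gated cells of library 4 (intervals 4.20% to 5.82% and 2.80% to 4.17%) than in the high-C1qa cells (6.81% to 8.87% and 4.63% to 6.38%). In the endothelial cells, which had fewer UMIs per cell, both shares were lower than in the low-C1qa cells, with overlapping intervals. After thinning, the shares of the cell groups were similar. A share below that of the high-C1qa cells is not read here as expression on its own. It does include the 22 cells with at least 5 marker UMIs. In libraries 1 and 3 the same share was 21.8% and 19.0% in the low-C1qa cells and 1.23% and 1.96% in the high-C1qa cells.

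Genes that the rule did not use separated the same cells. A list of 17 type 1 genes, among them *Irf8*, *Wdfy4*, *Cadm1*, *Itgae*, *Naaa* and *Batf3*, was summed in each cell as CPM, the counts of its genes per 1e+06 non-mitochondrial UMIs. Its median was 9089 CPM in the *Xcr1*/*Clec9a* cells of library 1, 8590.4 CPM in those of library 3 and 10721.5 CPM in the 22 of library 4 with at least 5 marker UMIs. It was 3773 CPM in the 23 library 4 cells with 2 to 4 marker UMIs and 3256 CPM in the 98 with 1, against 2641 CPM in the 2727 library 4 cells of the same gates without a marker. Over 5000 CPM, a level chosen after the data were seen, lay 16 of 19, 13 of 14 and 22 of 22 cells of the first 3 groups, 4 of 23 and 11 of 98 of the next and 5.06% of the cells without a marker. Of the 143 *Xcr1*/*Clec9a* cells of library 4, 29 were within 1000 CPM of that level, and none of those with at least 5 marker UMIs.

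The cells with few marker UMIs in library 4 had higher monocyte genes beside a lower type 1 level. Their median type 1 sum was 3256 CPM with 1 marker UMI and 3773 CPM with 2 to 4, against 10721.5 CPM with at least 5 and 2641 CPM in library 4 cells without a marker. *Ly6c2*, a surface protein of inflammatory monocytes, stood at 1487 CPM (1424 to 1552) in the 98 *Xcr1*/*Clec9a* cells with 1 marker UMI, 947 CPM in those with 2 to 4 and 193 CPM (158 to 234) in those with at least 5. No *Ly6c2* UMI was found in the *Xcr1*/*Clec9a* cells of libraries 1 and 3, where the intervals reach 9.18 and 15.2 CPM. A *Ly6c2* UMI was present in 89 of 98, 19 of 23 and 15 of 22 library 4 cells in the same order, and in the library 4 cells without a marker the level was 1510.4 CPM. The sum of 10 monocyte genes exceeded that of the type 1 list in 82 of 98, 19 of 23 and 1 of 22 of these cells, and in 2 of 19 and 1 of 14 *Xcr1*/*Clec9a* cells of libraries 1 and 3.

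**Figure D2:**
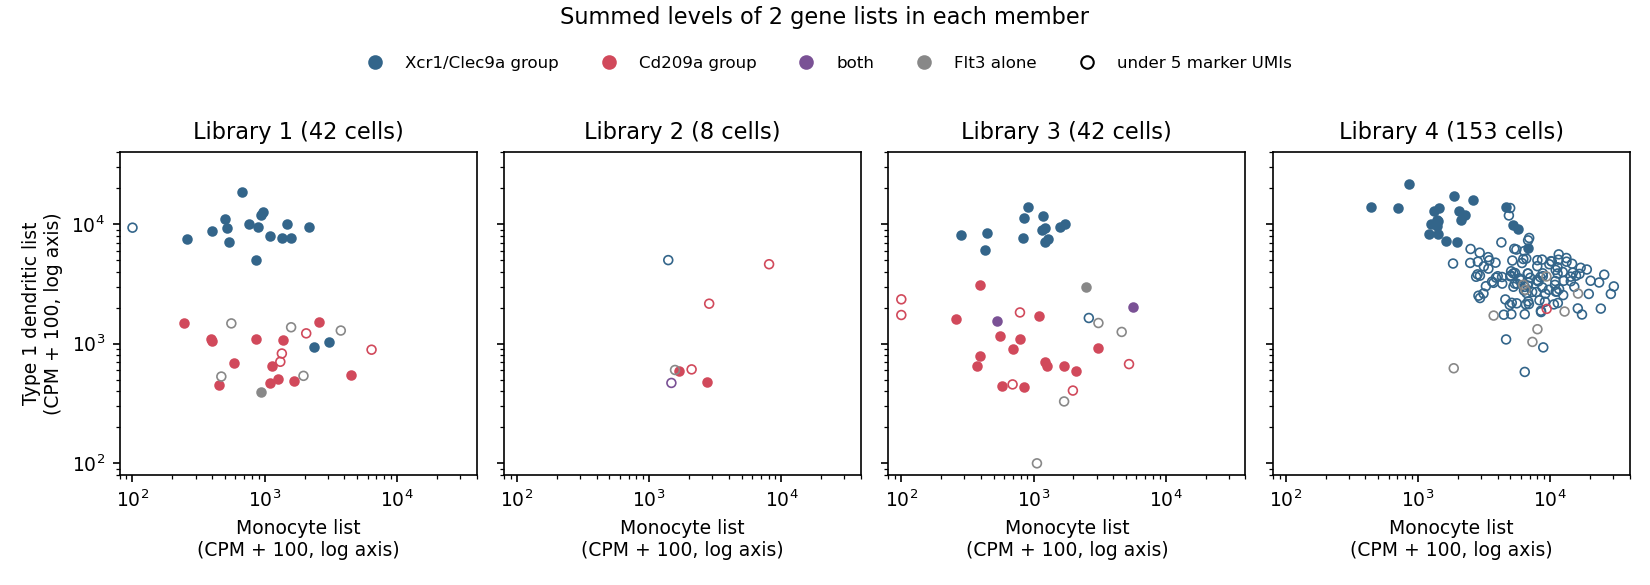
Summed CPM of 10 monocyte genes (horizontal) against summed CPM of 17 type 1 dendritic genes (vertical) in each member, with 100 CPM added to both log axes, 1 panel per library, coloured by marker genes; filled points have at least 5 marker UMIs and open points fewer. In library 4 the 22 filled points lie above 5000 CPM of the type 1 list, and most open points lie at high monocyte and lower type 1 levels.

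Single genes followed these steps only in part. *Irf8*, the transcription factor of the type 1 lineage, stood at 2150.1 CPM (2029 to 2276) in library 4 cells with at least 5 marker UMIs, 599 CPM with 2 to 4, 597 CPM with 1 and 469 CPM without a marker, and at 1674 and 1332 CPM in the *Xcr1*/*Clec9a* cells of libraries 1 and 3. *Wdfy4*, which is needed for cross-presentation, stood at 653, 56.5, 29.2 and 26.4 CPM in the same order. *Itgae*, which encodes the integrin chain CD103, stood at 129.5, 8.48, 2.85 and 0.281 CPM. For *Irf8* and *Wdfy4* the larger step was thus from at least 5 to fewer marker UMIs, while *Itgae* also stepped down from 1 to none. *Cadm1*, an adhesion protein of type 1 cells, stood at 113 CPM in the cells with at least 5 marker UMIs, had no UMI in those with 2 to 4 and stood at 9.27 CPM in those with 1. *Sirpa*, a receptor of type 2 cells and monocytes, ran the other way, at 20.1, 237, 238 and 235 CPM.

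**Figure D3:**
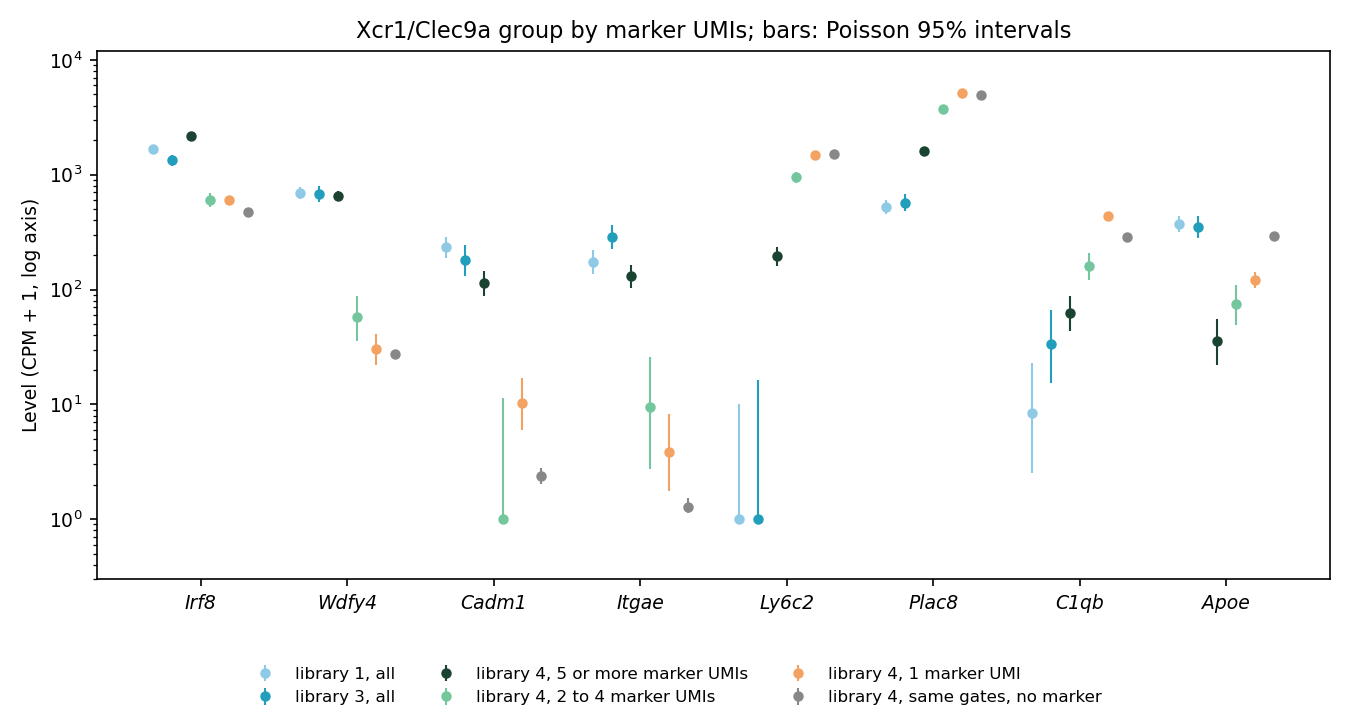
Level (CPM plus 1, log axis, points with Poisson 95% intervals) of 4 type 1 dendritic genes, 2 monocyte genes and 2 macrophage genes in Xcr1/Clec9a cells of library 1, library 3 and library 4, the last by summed marker UMIs, and in library 4 cells without a marker. Library 4 cells with at least 5 marker UMIs lie near libraries 1 and 3 for Irf8 and Wdfy4, and those with 1 lie near the cells without a marker.

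The label was borne out by these genes in most *Xcr1*/*Clec9a* cells of libraries 1 and 3 and in 22 cells of library 4. The exceptions were 2 of 19 such cells in library 1 and 1 of 14 in library 3, whose type 2 sum exceeded their type 1 sum. In the *Cd209a* cells of libraries 1 and 3 the type 2 conventional dendritic list summed to 6505 and 5227 CPM, above the 3912 and 3049 CPM of the gated cells without a marker, while their median type 1 sums were 728 and 682 CPM. The label went against the data in most other members of library 4, while library 2 held too few members to tell. *Zbtb46*, a transcription factor of conventional dendritic cells, stood at 29.9, 15.4 and 7.38 CPM in members of libraries 1, 3 and 4 and had no UMI in the 8 members of library 2, where the interval reaches 26.1 CPM. Over all filtered cells it stood at 22.0, 19.6, 25.2 and 4.38 CPM in libraries 1 to 4, each inside the counting interval of that library's members. In the *Xcr1*/*Clec9a* cells of library 4 it stood at 23.7, 2.83 and 2.14 CPM with at least 5, 2 to 4 and 1 marker UMIs. *Itgax*, the integrin CD11c, stood at 145, 184, 136 and 48.0 CPM in members of libraries 1 to 4. *Cx3cr1*, which resident macrophages carry, was lower in members than in C1q macrophages in libraries 1 and 3, at 28.5 and 24.0 CPM against 301 and 455 CPM, but not in library 4, at 9.02 against 4.15 CPM.

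Markers of other cell types were summed over the members of each library. The 8 T cell genes summed to 29.9, 7.08, 22.3 and 49.6 CPM in libraries 1 to 4, with *Il7r* the most abundant in libraries 1 to 3, where *Cd3d* had no UMI, and *Trbc2* in library 4. The 6 natural killer genes summed to 17.6, 0, 8.58 and 52.5 CPM, and the defining gene *Ncr1* had no UMI in any library. The 7 B cell genes summed to 172, 14.2, 172 and 54.1 CPM, most of it *Ighm*. Natural killer, T and B cell genes were thus far below the monocyte sums, which were 1239, 2654, 1265 and 7037 CPM with *Plac8* the most abundant in libraries 1, 3 and 4. The 7 neutrophil genes summed to 39.4, 871, 132 and 203 CPM, with *S100a8* the most abundant in libraries 2 and 3. The 7 endothelial genes summed to 331, 871, 333 and 158 CPM, with *Fabp4* the most abundant in libraries 1 to 3. The 6 fibroblast genes summed to 1008, 77.9, 1503.5 and 389.9 CPM, with *Dcn* the most abundant in each library. The 9 plasmacytoid dendritic genes summed to 381, 283, 352 and 1214 CPM, with *Irf7* the most abundant in library 4. The 11 macrophage genes summed to 478, 403, 525 and 1116 CPM, with *Apoe* highest in libraries 1 to 3 and *Fcgr1* in library 4. Their part in the results was not tested. The doublet search marked 6 members, 1 each in libraries 1 and 3 and 4 in library 4.

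*Cd209a* cells were nearly missing from library 4. The study took *Cd209a*, a C-type lectin also carried by type 2 cells, as a marker of monocyte-derived dendritic cells. Whether the *Cd209a* cells here were of that kind or type 2 conventional cells was not tested. *Cd209a* had a UMI in 17 of 87, 6 of 29 and 23 of 84 low-C1qa gated cells of libraries 1 to 3 and in 1 of 2880 in library 4. Among all filtered cells it had a UMI in 65, 33, 73 and 3 cells of libraries 1 to 4. *Mgl2*, another lectin of type 2 cells, stood at 224, 34.6, 154 and 1.66 CPM in the low-C1qa gated cells, and *Clec10a* at 177, 91.5, 146 and 9.04 CPM. All 3 lectins were thus lowest in the gated cells of library 4, the library with the most of them. Among all filtered cells this held for *Cd209a* and *Mgl2* but not for *Clec10a*, which stood at 10.5, 6.53, 7.71 and 10.7 CPM. In the *Cd209a* cells themselves, *Cd209a* stood at 1055, 654 and 1299 CPM in libraries 1 to 3 and at 45.2 CPM in the lone library 4 cell. Since the cells were gated from a mixture, fewer cells with these lectins and less RNA per cell cannot be told apart there.

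The first comparison asked how *Xcr1*/*Clec9a* cells differed from *Cd209a* cells. *Irf8*, *Itgae*, *Naaa* and *Tlr3* were higher in the former and *Clec10a*, *Mgl2*, *S100a4* and *Tmem176a* were higher in the latter. Of 9 measured MHC class II genes none was called, with a median log2 ratio of -0.40. In the comparisons, measured means that a gene had at least 10 CPM in 1 of the cell groups and was not used to choose them. The comparison was made within libraries 1 and 3, with 19 against 17 and 14 against 21 cells. No library reached the planned minimum of 30 cells in both groups, and a minimum of 10 was chosen after the data were seen. For each gene the log2 ratio of CPM plus 10 was taken in each library, so that a gene without a UMI enters at 10 CPM and its ratio is no bound. The median over libraries is the value of a gene, and a gene was called when that median was at least 1 in size (2-fold) with the same sign in every library used. Of 7856 genes, 1099 were called (14.0%), 429 higher in *Xcr1*/*Clec9a* cells (5.46%) and 670 higher in *Cd209a* cells (8.53%). Library 1 alone called 1603 genes, 773 of them among the 1099, and library 3 alone 2201, 914 of them among the 1099.

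Of the 17 type 1 genes, 16 were measured and all 16 were higher in *Xcr1*/*Clec9a* cells, with a median log2 ratio of 3.30 against -0.03 over all genes tested. The cells were split by markers of the types and the lists were chosen with earlier results known, so the count is no independent test. Genes without a UMI in *Cd209a* cells, such as *Tlr3* and *Gcsam*, entered through the *Xcr1*/*Clec9a* cells alone. *Irf8* stood at 1674 CPM (1550.0 to 1805) in the *Xcr1*/*Clec9a* cells and 26.8 CPM (10.8 to 55.2) in the *Cd209a* cells of library 1, and at 1332 (1191 to 1485) and 11.95 CPM (2.46 to 34.9) in library 3, a log2 ratio of 5.73. *Naaa*, a lysosomal amidase, stood at 1781 against 149 CPM and 1649 against 51.8 CPM. The intervals of the cell groups did not overlap for either gene in either library. *Itgae* stood at 174 against 3.82 CPM and 288 against 0 CPM. *Tlr3*, the endosomal receptor for double-stranded RNA, stood at 174 and 98.7 CPM and had no UMI in the *Cd209a* cells of both libraries. *Cadm1* stood at 234 and 181 CPM against 0 and 23.9 CPM, and *Gcsam* at 117 and 98.7 CPM with no UMI in *Cd209a* cells. Both were thus nearly or wholly without a UMI in the *Cd209a* cells. *Cd24a* (log2 ratio 3.56), *Ppt1* (3.05) and *Ifi205* (4.30) were also among the 12 highest, with *Anpep* and *Sept3*, which were not in the list. *Cxcl9*, an interferon-induced chemokine, had a log2 ratio of 3.76, but in library 3 its 534 CPM came largely from 1 cell with a single marker UMI, and the 13 cells with at least 5 marker UMIs stood at 12.7 CPM.

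Of the 15 type 2 genes, 13 were measured and 12 were higher in *Cd209a* cells, with a median log2 ratio of -3.18. The exception was *Cd209d*, whose ratio had opposite signs in the libraries. The limits given for the type 1 list hold here as well. *Clec10a* stood at 692 CPM (595 to 801) and 506 CPM (422 to 602) in the *Cd209a* cells of libraries 1 and 3 and had no UMI in the *Xcr1*/*Clec9a* cells, where the intervals reach 9.18 and 15.2 CPM. *Mgl2* stood at 761 against 2.49 CPM and 414 against 8.22 CPM. *S100a4*, a calcium-binding protein, stood at 2788 against 134 CPM and 1992 against 32.9 CPM. Both libraries placed each of these genes on the same side with no overlap of intervals. *Tmem176a* (-4.79), *Tmem176b* (-4.14), *Tnip3* (-4.52), the chemokine *Cxcl2* (-4.13) and the lipopolysaccharide co-receptor *Cd14* (-3.99) followed, with *Pltp*, *Clec4b1* and *Clec4a2*. The chemokine receptor *Ccr1* stood at 84.1 and 247 CPM in *Cd209a* cells and had no UMI in *Xcr1*/*Clec9a* cells. *Sirpa* stood at 226 against 27.4 CPM and 147 against 8.22 CPM.

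**Figure D4:**
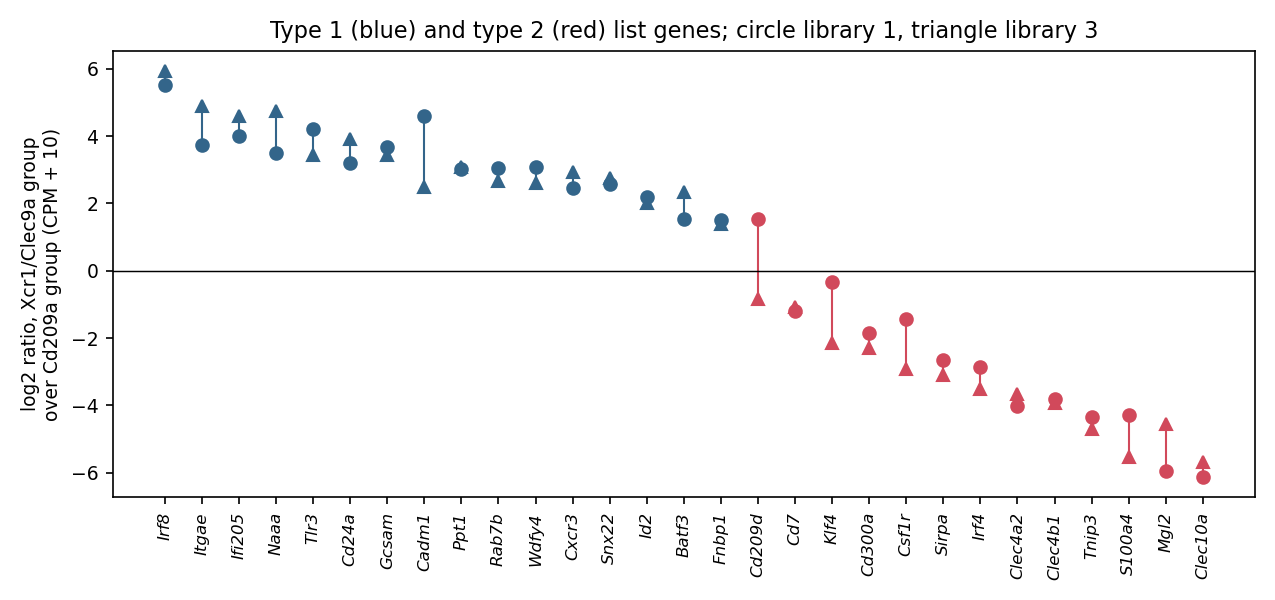
Log2 ratio of CPM plus 10 in Xcr1/Clec9a over Cd209a cells for each measured type 1 (blue) and type 2 (red) gene (circle library 1, triangle library 3; above 0 is higher in Xcr1/Clec9a cells). The 16 type 1 genes lie above 0 in both libraries, and the 13 type 2 genes apart from Cd209d lie below 0 in both.

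Transcription factors, antigen handling and signals followed the division into types only in part. Of 14 dendritic transcription factors, *Batf3*, *Irf8* and *Id2* were higher in *Xcr1*/*Clec9a* cells and *Irf4*, *Zeb2*, *Klf4*, *Relb* and *Tcf4* in *Cd209a* cells. *Irf4* stood at 153 and 104 CPM in *Cd209a* cells of libraries 1 and 3 against 12.4 and 0 CPM. In the MHC class I list of 15 genes, 5 were higher in *Xcr1*/*Clec9a* cells, the proteasome parts *Psme1*, *Psme2*, *Psmb8* and *Psmb9* and the peptide transporter subunit *Tap2*, and none was lower. *Psmb9* stood at 657 and 806 CPM against 157 and 179 CPM. Of 11 measured lysosomal genes, 6 were higher in *Cd209a* cells, among them the proteases *Ctss*, *Ctsc*, *Ctsd* and *Lgmn*, and 1 was higher in *Xcr1*/*Clec9a* cells, the protease inhibitor *Cst3* at 24022 and 23260.1 CPM against 4604 and 3569 CPM. Markers of other myeloid cells were also higher in the *Cd209a* cells. They were 4 of 8 measured macrophage genes, *Mrc1*, *Fcgr1*, *C1qb* and *Adgre1*, with *Apoe* higher in *Xcr1*/*Clec9a* cells, 3 of 8 monocyte genes, *Fn1*, Vcan and *Ms4a4c*, and 3 of 5 neutrophil genes, *Cxcr2*, *S100a8* and *S100a9*. Of other cell types' markers, 2 of 4 B cell genes (*Ebf1* and *Cd79b*), the 1 T cell gene measured (*Il7r*) and 1 of 3 plasmacytoid genes (*Tcf4*) were higher in *Cd209a* cells. Of 6 endothelial genes, 1 (*Cd36*) was higher in *Xcr1*/*Clec9a* cells. The part of RNA from all such cells in the lysosomal genes, and in the chemokines and cytokines given next, was not tested. Whether the *Cd209a* cells were type 2 conventional or monocyte-derived cells was not tested either. The S phase list had 5 of 14 genes higher in *Xcr1*/*Clec9a* cells, among them *Mcm6* and *Mcm5*, and the G2M list had 3 of 15 lower.

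More chemokines were higher in *Cd209a* cells than in *Xcr1*/*Clec9a* cells. Of 12 measured chemokines, 7 were higher in *Cd209a* cells and 1, *Cxcl9*, in *Xcr1*/*Clec9a* cells. Of 7 measured cytokines, *Il1b* and *Tgfb1* were higher in *Cd209a* cells and *Il12b* in *Xcr1*/*Clec9a* cells. *Il1b*, an inflammatory cytokine, stood at 4348, 2989.6 and 5498 CPM in the *Cd209a* cells of libraries 1 to 3 and at 1104, 432 and 1205 CPM in the *Xcr1*/*Clec9a* cells, of which library 2 had 1. *Ccl17*, a chemokine for T cells, stood at 436, 678 and 7.97 CPM in *Cd209a* cells of libraries 1 to 3. In library 1 its UMIs came from 4 of 17 cells, and in library 3 from 2 of 21. *Ccl22*, which acts on the same receptor, stood at 444, 36.3 and 27.9 CPM. *Il12b*, a subunit of interleukin-12, was higher in *Xcr1*/*Clec9a* cells at 7.46 and 98.7 CPM and had no UMI in *Cd209a* cells of libraries 1 and 3. The costimulatory receptor *Cd40* was higher in *Cd209a* cells, at 76.5 and 63.7 CPM against 4.97 and 16.4 CPM, while the checkpoint receptor *Havcr2* (TIM-3) stood at 157 and 136 CPM in *Xcr1*/*Clec9a* cells against 42.1 and 31.9 CPM. Of 13 measured genes of dendritic maturation, 8 were higher in *Cd209a* cells, *Relb* among them, and none was lower. Among the 21 members with *Flt3* alone, the type 2 sum exceeded the type 1 sum in 5 of 6, 1 of 1, 4 of 5 and 5 of 9 in libraries 1 to 4. Their median type 2 sums of 7412 and 4352 CPM in libraries 1 and 3 compare with 6435 and 4828 CPM in the *Cd209a* cells.

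The second comparison set the members against C1q macrophages, the cells with at least 5 *H2-Aa* UMIs, at least 3 *C1qa* UMIs and none of the markers or excluded genes. Members had higher *Klrd1*, *Ifitm1*, *H2-Oa*, *Cd24a* and *Napsa*, and C1q macrophages had higher *Apoe*, *C1qb*, *C1qc*, *Pf4*, *Ms4a7* and *Trem2*. Libraries 1, 3 and 4 entered, with 42, 42 and 153 members against 228, 336 and 2478 macrophages. Of 7764 genes, 683 were called (8.80%), 264 higher in members (3.40%) and 419 lower (5.40%). Without library 4 the count was 1056 genes, and with at least 2 marker UMIs per member it was 867. Of the 12 genes of the dendritic core list, 11 were measured and 10 were higher in members, with a median log2 ratio of 1.88 against 0.00 over all genes. Of 11 macrophage genes, 10 were measured and 9 were lower, with a median of -4.20. *C1qa* itself chose both groups, and *C1qb* and *C1qc* are subunits of the same complex, so these follow the rule closely.

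*Klrd1*, which encodes the CD94 receptor chain, stood at 347 CPM (306 to 393), 383 CPM (334 to 436) and 47.6 CPM (39.3 to 57.0) in members of libraries 1, 3 and 4 and at 1.11, 1.63 and 6.44 CPM in C1q macrophages. *Napsa*, an aspartic protease, stood at 759, 882 and 467 CPM against 55.0, 40.7 and 100.2 CPM. *Apoe*, the lipid carrier, stood at 246, 300.4 and 93.5 CPM in members against 31507, 31784 and 1891 CPM. The intervals did not overlap in any of the 3 libraries for these genes, and library 4 had the smallest distance for *Klrd1*, *Napsa* and *Apoe*. *Itgb7*, *Sept3*, *Gpr171*, *Jaml*, *P2ry10*, *H2-Ob* and *Itgae* completed the 12 highest. The platelet chemokine *Pf4* (-6.07), the membrane protein *Ms4a7* (-5.94), the lipid receptor *Trem2* (-5.43), the chemokines *Ccl8* (-4.85) and *Ccl12* (-4.47) and the complement receptors *C3ar1* (-4.92) and *C5ar1* (-4.29) were among the 12 lowest, with *Fcrls* and *Gdf15*.

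Lysosomal, chemokine and sensing genes were mostly lower in members than in C1q macrophages. Of 11 lysosomal genes measured, *Ctsb*, *Ctsc*, *Ctsd*, *Ctsl*, *Lamp1* and *Lgmn* were lower in members and *Cst3* was higher. *Ctsd*, a lysosomal protease, stood at 73.3, 146 and 416 CPM in members and 1209, 1620.0 and 1126 CPM in C1q macrophages. *Cst3* stood at 14963, 11846 and 7255 CPM against 4155, 4088 and 1577 CPM. Members thus had the lower *Ctsd* level and the higher *Cst3* level in all 3 libraries. Of 12 chemokines, 7 were lower, among them *Ccl3*, *Ccl4* and *Cxcl2*, and *Ccl22* was higher. *Ccl3* stood at 67.9, 127 and 154 CPM against 656, 649 and 171 CPM, so libraries 1 and 3 carried that difference. Of 10 sensing receptors measured, *Tlr2*, *Tlr4*, *Tlr7*, *Clec4a2*, *Clec4n* and *Cd14* were lower and *Tlr3* was higher. Of 10 cytokines, 4 were lower, *Il10*, *Il1a*, *Il15* and *Tnf*, and none was higher. *Batf3*, *Zbtb46*, *Irf8* and *Irf4* were higher and *Zeb2* was lower among 14 transcription factors. The 5 cardiomyocyte genes measured, 3 of 4 red-cell genes, 3 of 6 fibroblast genes (*Col3a1*, *Bgn* and *Col1a1*) and the mural gene Tagln were lower in members, and the part of such RNA from other cells in the result was not tested.

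The MHC class II accessory genes *H2-Oa*, *H2-Ob* and *H2-DMb2* set the members apart from C1q macrophages, while *H2-Ab1* was closer. H2-DM loads peptides onto class II molecules and H2-O, made of the *H2-Oa* and *H2-Ob* chains, holds H2-DM back. Of the 10 genes in the list, 9 were measured, *H2-Oa*, *H2-Ob* and *H2-DMb2* were higher in members and none was lower, with a median log2 ratio of 0.93. The accessory genes *H2-DMa* and *H2-DMb1* were not called. *H2-Oa* stood at 164 CPM (136 to 196), 260.9 CPM (221 to 306) and 56.6 CPM (47.5 to 66.8) in members of libraries 1, 3 and 4, against 2.60, 1.63 and 6.08 CPM in C1q macrophages. *H2-Ob* stood at 155, 156 and 31.2 CPM against 4.46, 3.95 and 3.61 CPM. *H2-DMb2* stood at 198, 161 and 117 CPM against 9.29, 6.51 and 11.8 CPM. For all 3 genes the groups lay apart in each library. *H2-Ab1*, the beta chain of I-A, stood at 13313, 13842 and 7883 CPM against 8071, 5776 and 6675 CPM, a median log2 ratio of 0.72 that is under the 2-fold limit. Both groups were gated on *H2-Aa*, the alpha chain of I-A, so this closeness may follow the rule in part. *H2-DMb1* and *H2-DMb2* are close copies, and reads could be split between them. Donor strains differ in their H2 genes while the reads were aligned to 1 genome, and the effect on these levels was not tested.

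The same 3 genes were higher in members than in the cells of the same gates without a marker, in which *H2-Oa* stood at 7.57, 19.3 and 16.7 CPM in libraries 1, 3 and 4. In library 4, *H2-Oa* stood at 98.5 CPM in *Xcr1*/*Clec9a* cells with at least 5 marker UMIs, 87.6 CPM with 2 to 4 and 33.5 CPM with 1. *H2-Oa* and *H2-DMb2* did not mark one type alone. *H2-Oa* stood at 159 and 189 CPM in *Xcr1*/*Clec9a* cells and at 176 and 311 CPM in *Cd209a* cells of libraries 1 and 3, and *H2-DMb2* at 152 and 69.9 CPM against 249 and 163 CPM. *H2-Ob* stood at 174 and 214 CPM against 138 and 91.6 CPM, and none of the 3 was called between the types.

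**Figure D5:**
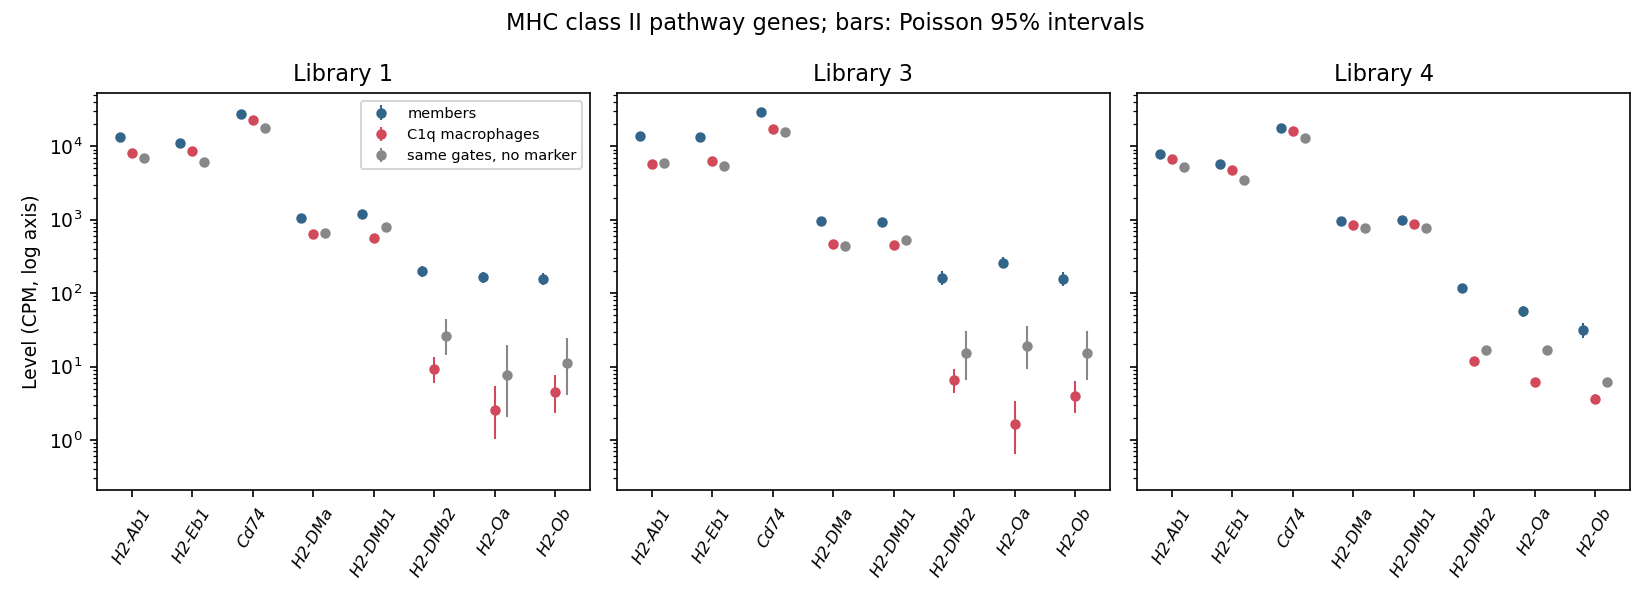
Level (CPM, log axis, points with Poisson 95% intervals) of 8 MHC class II genes in members, C1q macrophages and gated cells without a marker in libraries 1, 3 and 4. H2-Oa, H2-Ob and H2-DMb2 lie higher in members in every library shown, and H2-Ab1, H2-Eb1 and Cd74 lie closer together.

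The promoters of these genes share a short box. MHC class II genes are switched on through the factor *Ciita* on a group of promoter boxes, of which the Y box, an inverted CCAAT, binds NF-Y. The sequences below are shown because *H2-Oa*, *H2-Ob* and *H2-DMb2* differed from the macrophages while *H2-Aa*, the gene of the gate, was present in both. Each is 80 bases read toward the gene, from RefSeq on GRCm38.p6, and the capitals mark TGATTGG, letters chosen after the sequences were seen.
H2-Aa: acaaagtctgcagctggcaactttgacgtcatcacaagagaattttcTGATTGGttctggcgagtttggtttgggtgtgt
H2-DMb2: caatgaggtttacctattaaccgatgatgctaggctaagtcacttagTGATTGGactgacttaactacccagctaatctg
H2-Oa: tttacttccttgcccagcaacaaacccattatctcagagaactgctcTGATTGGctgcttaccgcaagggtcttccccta
H2-Ob: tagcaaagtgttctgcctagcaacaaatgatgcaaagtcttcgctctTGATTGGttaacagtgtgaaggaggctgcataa
They lie on chromosome 17, at chr17:34287841-34287920 on the minus strand for *H2-Aa* and, on the plus strand, at chr17:34145110-34145189 for *H2-DMb2*, chr17:34092287-34092366 for *H2-Oa* and chr17:34238799-34238878 for *H2-Ob*. The box began 50, 92, 45 and 59 bases before the start in that order. Starts are those of the promoter entries and can differ from the start of the annotated gene. TGATTGG or its reverse complement CCAATCA was found within 250 bases before to 50 after the start of 6 of the 7 class II genes that had an entry, and *H2-DMa* was the gene without it. Of 32851 promoters of the same length, 7.82% held it. The match describes the letters and says nothing of binding in these cells.

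The third comparison was with cells gated alike on *H2-Aa* and *C1qa* but with at least 1 UMI each of *Ccr7* and *Fscn1*, genes of mature dendritic cells, and called mature cells by that gate. The members had lower levels of most maturation genes and higher *Wdfy4*, *Naaa*, *Ly6c2*, *Ppt1* and *Lyz2*, while the mature cells had higher *Il4i1*, *Relb*, *Ccl5* and *Ccl22*. The mature group had 9, 0, 5 and 62 cells in libraries 1 to 4. Library 4, with 153 members against 62 cells, was the sole library with 30 cells in each group, so the result rests on it and includes the members with few marker UMIs.

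In library 4 a *Ccr7* UMI was found in 9.79% of all filtered cells, among them cells that express the gene, and in 4.90% of endothelial cells. Of the 1106 such filtered cells, 545 had at least 2 UMIs. Given the share in endothelial cells, a lone *Ccr7* UMI is not read here as maturity. Of the 62 mature cells of library 4, 18 had exactly 1 *Ccr7* UMI and 11 exactly 1 *Fscn1* UMI, and 33 had at least 5 of both. Those 33 cells had *Cacnb3*, a maturation gene outside the gate, at 692 CPM, *Il4i1* at 951 CPM and 105.9 CPM summed over the 6 fibroblast genes. The other 29 had *Cacnb3* at 46.0 CPM, *Il4i1* at 124 CPM and a fibroblast sum of 17551 CPM, with 156 CPM in the median cell and 51609.5 CPM in the highest. The maturation genes thus stood higher in the 33 cells, and the fibroblast genes came from some of the 29.

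Of 8372 genes, 1396 were called (16.7%), 443 higher in members (5.29%) and 953 lower (11.4%). With at least 5 cells per library, an alternative chosen after the data were seen, libraries 1, 3 and 4 entered and 1065 genes were called, 581 of them shared, and the share higher in members was 59.2% in place of 31.7%. With the 33 cells of at least 5 UMIs of both genes alone, also chosen after the data were seen, 1961 of 7824 genes were called, 688 of them shared, and 61.6% were higher in members. In number, 1207 genes were higher and 754 lower in members.

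Of 18 maturation genes, 17 were measured and 16 were lower in members, with a median log2 ratio of -2.79 against 0.03 over all genes, and against the 33 cells 16 of 17 were lower as well. *Il4i1*, an enzyme that breaks down phenylalanine, stood at 9.50, 6.87 and 10.3 CPM in members of libraries 1, 3 and 4 and at 676, 551 and 440.2 CPM in mature cells. *Relb*, the NF-kappaB subunit of maturing dendritic cells, stood at 65.1, 60.1 and 84.9 CPM against 728, 382 and 351 CPM. *Ccl22* stood at 164, 13.7 and 0.820 CPM against 825, 780.2 and 49.1 CPM. The mature cells were thus higher for these genes in the small groups of libraries 1 and 3 as well. *Cd83*, a surface protein of mature cells, was closer, at 699, 802 and 155 CPM against 1137, 780.2 and 368 CPM, and its intervals overlapped in library 3. *H2-Ab1* was higher in members, at 13313, 13842 and 7883 CPM against 5439, 8964 and 3510.3 CPM, as were *H2-DMa* and *H2-DMb1* in library 4. Against the 33 cells *H2-DMa* and *H2-DMb1* were still called higher in members, *H2-DMb2* was called lower, and *H2-Ab1* was not called. *H2-DMb2* stood at 198, 161 and 117 CPM in members of libraries 1, 3 and 4 and at 282, 612 and 161 CPM in all mature cells.

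In library 4, 10 of 16 type 1 genes and 7 of 11 sensing receptors, among them *Tlr2* and *Cd14*, were higher in members than in mature cells. So were 6 of 10 monocyte genes, *Ly6c2* at 1086 against 178 CPM among them, while *Fn1*, Hp and Vcan were lower. Of other cell types' markers, 4 of 6 macrophage genes (*Fcgr1*, *C1qb*, *C1qc* and *Adgre1*), 3 of 4 neutrophil genes (*S100a8*, *S100a9* and *Csf3r*) and 4 of 8 plasmacytoid genes (*Klk1*, Siglech, *Cox6a2* and *Ccr9*) were higher in members, and *Apoe* was lower. Against the 33 cells with at least 5 UMIs of both genes, 1207 of all 7824 genes were higher in members and 754 were lower. Of the lists, 10 of 16 type 1 genes, 7 of 11 sensing receptors, 10 of 10 monocyte genes and 4 of 6 macrophage genes were higher in members. So were 3 of 4 neutrophil genes, 5 of 8 plasmacytoid genes and 2 of 5 endothelial genes. The 33 cells were higher for 3 of 5 natural killer genes (*Klrb1c*, *Ncr1* and *Gzma*) and 2 of 5 T cell genes (*Cd3d* and *Il7r*). Lower in members than in the 33 cells were 4 of the type 1 genes, *Batf3*, *Cd8a*, *Irf8* and *Id2*, and 6 of 11 dendritic core genes, *Zbtb46* and *Dpp4* among them, while 3 core genes were higher. The part of RNA from these cell types was not tested.

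All 6 fibroblast genes and the 3 mural genes measured were lower in members, but against the 33 cells the 4 fibroblast genes measured were higher in members. *Col1a1*, a collagen chain of fibroblasts, stood at 77.5 CPM in members and 2481 CPM in mature cells of library 4 but at 44.8 and 142 CPM against 29.7 and 15.3 CPM in libraries 1 and 3. The 6 fibroblast genes together summed to 289.8, 643 and 10885 CPM in mature cells of libraries 1, 3 and 4, with *Col3a1* the most abundant in library 4 at 4209.7 CPM, so library 4 alone had the high sum. Among the others of the 12 lowest genes were *Cxcl14*, *Timp1*, *Mfap5*, *Il33*, *Col1a2*, *Col3a1*, *Bgn*, *Ctgf*, *Serpinf1* and *Lcn2*, and against the 33 cells the ratio of each of these genes and of *Col1a1* was above 0. With libraries 1 and 3 included the median ratio of *Cxcl14*, *Col3a1*, *Bgn*, *Ctgf*, *Col1a1* and *Serpinf1* was above 0.

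The last comparison was with cells of the same gates and no marker UMI, which shows what at least 1 marker UMI adds. In libraries 1 and 3 genes such as *C3* and *Lyz2* were higher in the cells without a marker than in members, and in library 4 the groups were closer. There were 45, 42 and 2727 such cells in libraries 1, 3 and 4. Of 7838 genes, 614 were called (7.83%), 176 higher in members (2.25%) and 438 lower (5.59%), and without library 4 the count was 1146 and with at least 2 marker UMIs per member 867. All 16 measured type 1 genes were higher, with a median log2 ratio of 1.92 against -0.03 over all genes, and *Itgae*, *Wdfy4*, *Irf8* and *Cd24a* were among the 12 highest, with *Klrd1*, *Sept3*, *P2ry10*, *Gpr171* and *Ckb*. Of 10 monocyte genes, 7 were lower in members, of 9 macrophage genes measured, 5, and of 6 fibroblast genes, 5, *Col3a1*, *Bgn*, *Dcn*, Lum and *Col1a1*. Their median log2 ratios were -1.75, -1.44 and -2.62, and the part of RNA from these cell types was not tested. The complement protein *C3* stood at 100.4, 46.3 and 609 CPM in members of libraries 1, 3 and 4 against 2983, 2426 and 983 CPM. *Lyz2*, the lysozyme of monocytes and macrophages, stood at 1377, 652 and 6019.8 CPM against 13188, 8893 and 9142 CPM. The log2 ratio of *C3* was -4.76 and -5.43 in libraries 1 and 3 and -0.68 in library 4, and that of *Klrd1* was 4.51, 4.47 and 0.78. *Thbs1*, *Saa3*, *Apoe*, *Chil3*, *Cxcl1*, *Hspb1*, *Pla2g7*, *Aebp1*, *Rarres2* and *Slc7a11* were the others of the 12 lowest.

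Several G2M genes were higher in members than in these neighbours, and no S phase gene was called. Of 16 measured G2M genes, 7 were higher in members, *Mki67*, *Top2a*, *Cdk1*, *Ccnb1*, *Ccnb2*, *Nusap1* and *Ube2c*, and none was lower. The median log2 ratio was 1.01 for the G2M list and 0.55 for the 14 measured S phase genes, against -0.03 over all genes. *Mki67*, a protein of dividing cells, stood at 69.2, 127 and 88.1 CPM in members of libraries 1, 3 and 4 against 5.68, 34.7 and 27.6 CPM. The UMIs came from 10 of 42, 11 of 42 and 33 of 153 members, so most members had none. In library 4 most of these UMIs came from the 22 *Xcr1*/*Clec9a* cells with at least 5 marker UMIs. The library 4 level of *Mki67* is thus not that of its other members. C1q macrophages stood at 70.2, 51.4 and 28.3 CPM for *Mki67*, which in library 1 is within the counting interval of the members (51.5 to 91.0).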

How the data were processed

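The authors aligned single-cell 3′ reads with Cell Ranger 3.0.0 (mm10) and deposited 1 merged table of UMI counts for 53824 cells and 30905 genes, in which the barcode ending marks 4 libraries. Reads of both strains were aligned to 1 genome, and its effect on H2 gene counts was not tested. The submitters' notes also name CASAVA 1.8 and Seurat. Cells with over 200 genes and under 20% mitochondrial UMIs were kept. CPM was UMIs over non-mitochondrial UMIs. Each contrast took log2((CPM + 10)/(CPM + 10)) within libraries of at least 30 cells per group (10 between Xcr1/Clec9a and Cd209a cells) for genes of at least 10 CPM in a group, without the genes of the rule. Shares were also computed after thinning cells to 1000 UMIs. Simulated doublets (10 principal components, 2000 genes, 50 neighbours) marked the top 5% of cells per library, and marked members were kept. Of 327 listed genes 322 were matched, Amica1, Clec7a and Ifi30 were not, and Aldoa and Itgam were left out because each stood on 2 rows. The members and lists were chosen with earlier results of these data known. Named were the 12 highest and 12 lowest called genes of at least 50 CPM in the higher group, up to 4 genes per list, the rule's genes, and Cx3cr1, Ly6c2, Zbtb46 and Itgax as label checks. Other named genes were chosen after their values were seen, and some genes are not reported here. On simulated counts for the C1q comparison (7521 genes), 94.5% of 200 genes changed 4-fold and 0% of unchanged genes were called, and for Xcr1/Clec9a against Cd209a cells (7981 genes) 90.5% and 1.55%. Both simulations started from levels of C1q macrophages and held counting error alone, without spread between cells. They check the calculation and do not give the rate of false calls in these cell groups. Python 3.11.15, numpy 2.4.6, scipy 1.17.1, pandas 2.3.3, scikit-learn 1.9.0 and matplotlib 3.10.9 were used.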

Additional observations from a re-analysis of the deposited data

How the results depend on the processing

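With at least 2 marker UMIs the members numbered 125, with C1qa at 0 126 and with at least 5 marker UMIs 87, and leaving out 1 library each gave 92 (without library 4) to 237. The share of Xcr1/Clec9a cells was then 61.6%, 61.1% and 60.9%, and 37.0% to 80.3%. Genes called between Xcr1/Clec9a and Cd209a cells were 2059 with 1 CPM added, 302 with 50 CPM added, 622 among genes of at least 50 CPM, 1738 after thinning and 1099 to 2201 leaving out a library. Against mature cells they were 2187, 461, 769 and 3845 in that order, and leaving out library 1, 2 or 3 could not change them because library 4 alone entered. Against C1q macrophages they were 1113, 262, 426, 1041, 427 with libraries summed, and 515 to 1056 (without library 4). Against cells without a marker they were 1038, 204 and 325, and 569 to 1146 (without library 4). The share of calls higher in members of the mature comparison was 31.7%, and 53.3% after thinning. It moved from 38.7% to 49.6% against C1q macrophages with libraries summed, from 28.7% to 39.6% (summed) and 40.4% (thinned) against cells without a marker, and from 39.0% to 49.6% between the types without library 3. The following genes changed direction against mature cells once libraries of at least 5 cells entered, and again with at least 2 marker UMIs as well: Cxcl14 (0.43 and 0.45), Col3a1 (0.038 and 0.041), Bgn (0.59 and 0.62), Ctgf (0.96 and 0.89), Col1a1 (0.46 and 0.52) and Serpinf1 (2.04 and 2.09). With both settings 1123 genes were called. Against mature cells with at least 5 UMIs each of Ccr7 and Fscn1, 1961 genes were called, 61.6% of them higher in members, and the ratio was reversed for Cxcl14 (0.15), Timp1 (0.92), Mfap5 (0.40), Il33 (0.17), Col1a2 (1.08), Lcn2 (1.08), Col3a1 (1.17), Bgn (1.26), Ctgf (0.32), Col1a1 (1.33) and Serpinf1 (0.32). The cause was not tested. All minimums of 5 were chosen after seeing the data. Of the single-gene values under all alternatives, 959 moved by less than the counting interval, 514 moved further and 23 changed direction. The mature comparison could not be made with C1qa at 0 or without library 4. No paired analysis was possible because the cells carry no replicate number of a graft and no result came from a test; contrasts were already taken within libraries. No result has a check between grafts, and small groups, such as the 8 members of library 2 and the 5 mature cells of library 3, limit precision.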

Other observations

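The 22 Xcr1/Clec9a cells of library 4 with at least 5 marker UMIs were set beside those of libraries 1 and 3 with the same minimum. The 20 genes of the interferon response list summed to 341, 139.8 and 2447 CPM in libraries 1, 3 and 4, the 19 G2M phase genes to 476, 347 and 2022.5 CPM and the 19 S phase genes to 749.7, 338.8 and 1103 CPM. The cells compared numbered 18, 13 and 22 in libraries 1, 3 and 4, and the libraries are not tied to grafts. Cxcl9, a chemokine for activated T cells, stood at 54.8, 12.7 and 1271 CPM (1178 to 1369 in library 4), with a UMI in 21 of the 22 cells. Gbp2, a guanylate-binding protein, stood at 4.98, 4.24 and 195 CPM. Library 4 was thus the highest for both. The library 4 cells without a marker were higher again, at 2921 CPM for Cxcl9 and 1979.5 CPM for Gbp2. The part of free RNA and of library in these values was not tested.

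The 15 genes of the MHC class I and peptide loading list summed to 9533, 9144 and 16325.5 CPM. Psmb9, a proteasome part, stood at 658, 805 and 1388 CPM and Tap1, a peptide transporter subunit, at 336, 339 and 708 CPM. H2-Ab1 stood at 11782, 11148 and 9935 CPM and H2-Ob at 174, 220.2 and 80.2 CPM, both lowest in library 4. Mki67 stood at 59.8, 63.5 and 312 CPM (267 to 362 in library 4, with a UMI in 9 of 22 cells), and Top2a, a topoisomerase of dividing cells, at 84.7, 4.24 and 339 CPM. The checkpoint receptor Havcr2 stood at 157, 139.8 and 47.4 CPM, and Il1b at 1106, 1152 and 589 CPM. The named genes were picked after their values were seen, and no contrast was fitted between libraries.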
